A study of Rattus norvegicus with 12 samples.

Results

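Genes that mark neural progenitors, dividing cells and newborn granule neurons were followed in the rat hippocampus after chronic intermittent hypoxia (CIH), in which oxygen is lowered in repeated cycles to mimic sleep apnoea. The 10 genes are Nes, Mki67, Top2a, Eomes, Neurod1, Sox4, Sox11, Igfbpl1, Dcx and Calb2, chosen by symbol among the 26949 genes of the RNA table, and each symbol had 1 row. Of these 10 genes, 9 had enough counts to be tested among 17935 genes, and Eomes did not. The 6 RNA libraries came from hippocampus of male rats: 3 from animals in normoxia for 4 weeks (control) and 3 from animals in CIH for 4 weeks. The sources used here give no strain, age or oxygen cycle. They do not say if each library is 1 animal, so p-values measure only the spread between these libraries, which may be technical.

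Adult neurogenesis in the hippocampus takes place in the subgranular zone of the dentate gyrus, where radial glia-like stem cells give rise to dividing intermediate progenitors, then to neuroblasts, and at last to granule neurons. The stem cells hold the filament protein nestin, the intermediate progenitors the transcription factor Eomes (TBR2), and the neuroblasts and young neurons the microtubule protein doublecortin. None of these genes is exclusive to the lineage: nestin is also found in vessel cells, calretinin in interneurons and Cajal-Retzius cells, and Ki-67 in any dividing cell. In bulk tissue, fewer cells of a type and less RNA per cell cannot be told apart.

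The promoters of 8 of the 10 genes were read from RefSeq windows of the GRCr8 assembly, taking the 250 bases before the annotated start; Sox4 and Calb2 were not matched. Nes and Igfbpl1 are shown because their CIH libraries all lay below the controls in scaled counts, and Mki67 and Top2a because they are the cell-division genes of the set. Capitals mark the CCAAT box and the motif TTTGAA, the core of an element known from cell-cycle promoters, each searched on both strands; where the motifs overlap, the capitals run together.
Nes (chr2:175736338-175736587, plus strand): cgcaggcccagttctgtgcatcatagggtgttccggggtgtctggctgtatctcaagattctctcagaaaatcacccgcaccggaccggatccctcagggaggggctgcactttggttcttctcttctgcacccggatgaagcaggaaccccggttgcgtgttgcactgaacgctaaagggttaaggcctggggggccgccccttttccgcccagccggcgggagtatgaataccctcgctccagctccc
Igfbpl1 (chr5:64887462-64887711, minus strand): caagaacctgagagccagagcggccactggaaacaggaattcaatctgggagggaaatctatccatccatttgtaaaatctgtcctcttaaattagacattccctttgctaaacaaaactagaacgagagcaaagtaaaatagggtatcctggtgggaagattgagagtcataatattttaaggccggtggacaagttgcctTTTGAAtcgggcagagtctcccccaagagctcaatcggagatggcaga
Mki67 (chr1:199952594-199952843, minus strand): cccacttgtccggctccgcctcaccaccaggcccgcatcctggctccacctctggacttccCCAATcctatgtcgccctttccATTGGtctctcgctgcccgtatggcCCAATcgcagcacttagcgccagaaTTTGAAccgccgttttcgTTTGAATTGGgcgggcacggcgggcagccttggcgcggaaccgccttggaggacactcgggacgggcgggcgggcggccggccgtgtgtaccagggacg
Top2a (chr10:84473094-84473343, minus strand): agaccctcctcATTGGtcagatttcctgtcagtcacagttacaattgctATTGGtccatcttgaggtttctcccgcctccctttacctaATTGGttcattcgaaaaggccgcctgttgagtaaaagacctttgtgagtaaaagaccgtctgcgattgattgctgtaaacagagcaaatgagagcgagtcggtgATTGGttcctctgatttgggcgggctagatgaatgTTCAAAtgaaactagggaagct

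The Mki67 and Top2a windows held 4 CCAAT boxes each, and 2 and 1 copies of TTTGAA. Nes and Dcx held 0 of either, Igfbpl1 held 1 TTTGAA, Eomes 2 CCAAT boxes, Sox11 1 of each and Neurod1 0 of either. Over 33469 RefSeq windows of this length, 34% held a CCAAT box and 16.2% a TTTGAA. The hypoxia response element cores ACGTG and GCGTG, also searched on both strands, stood in 16.6% and 25.9% of all windows; ACGTG was in 0 of the 8 windows, and GCGTG stood 1 time each in Nes, Neurod1 and Sox11. CANNTG, the E-box pattern that proneural factors such as Neurod1 can bind, was in 65.5% of all windows; Top2a held 3, Sox11 2, and Mki67, Neurod1 and Igfbpl1 1 each. These matches describe letters in a window and no binding.

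Per unit of length, in the TPM values made by the authors, Neurod1 and Sox11 were the most abundant of the set (means of 25.7 ± 10.6 and 17.2 ± 10.2 TPM, SD over the 6 libraries). Sox4 at 13.3 ± 1.22, Calb2 at 10.8 ± 3.28 and Dcx at 9.75 ± 3.13 TPM followed. Nes stood at 3.51 ± 1.03 and Igfbpl1 at 3.04 ± 0.764 TPM, and the cell-division genes Top2a and Mki67 at 1.44 ± 1.12 and 1.11 ± 0.684 TPM. Eomes came last at 0.213 ± 0.345 TPM. From Neurod1 down to Dcx each mean was within the larger SD of its neighbour, as were Nes and Igfbpl1, and Top2a and Mki67. The steps from Dcx to Nes, from Igfbpl1 to Top2a and from Mki67 to Eomes were larger than either SD.

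Nestin, the intermediate filament of neural stem cells, was the member with the clearest separation between the groups. Nes (gene ID 25491) stood at 14.1, 15.1 and 14.0 CPM in the controls and at 8.24, 9.86 and 7.18 CPM in CIH (CPM, the estimated count as a share of the TMM-adjusted library total, scaled by 1e+06). All 3 CIH libraries were therefore below all 3 controls, and the mean was 1.71-fold higher in control. The controls varied little, with a coefficient of variation of 4.07% against 16.0% in CIH. The log2 fold change, CIH over control, was -0.77 (SE 0.16), with an unadjusted p of 0.00171 and an adjusted p of 1.00 in edgeR's quasi-likelihood test over all genes. Without CIH replicate 1 the value was -0.76, and the direction was the same in 13 of 13 alternatives (-0.90 to -0.60). All 13 reuse the same libraries. With no overlap between the groups, the 6 fits that leave out a library could hardly turn the direction.

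Vessel cells can also hold nestin, and the median change of their marker lists was above 0 only with CIH replicate 1 included. Of 12 endothelial genes 11 had a higher value in CIH with all libraries and 5 without that replicate (median log2 fold change 0.27 and -0.03). Of 10 pericyte and smooth muscle genes 9 were higher with all libraries and 5 without it (median 0.33 and -0.06). Their summed levels were 283 to 378 TPM in control and 337 to 443 TPM in CIH for endothelium, and 221 to 252 against 228 to 409 TPM for pericytes and muscle. The endothelial receptor gene Flt1 had a log2 fold change of 0.33 (SE 0.11), the transporter gene Slco1a4 one of 0.42 (SE 0.15) and the adhesion gene Pecam1 one of 0.52 (SE 0.23). The pericyte channel genes Abcc9 and Kcnj8 stood at 0.35 (SE 0.15) and 0.53 (SE 0.27), and the abundant pericyte gene Rgs5 at 0.31 (SE 0.17). None passed the test (adjusted p = 1.00 for each, edgeR). CIH replicate 1 was the highest library for 11 of the 12 endothelial and 10 of the 10 pericyte and muscle genes. Every CIH library lay above all controls for 4 of the 12 and 2 of the 10, against 3.05% of all genes. Flt1, Slco1a4, Pecam1, Abcc9 and Kcnj8 were among them. The part of vessel cells in the Nes value was not tested.

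**Figure D1:**
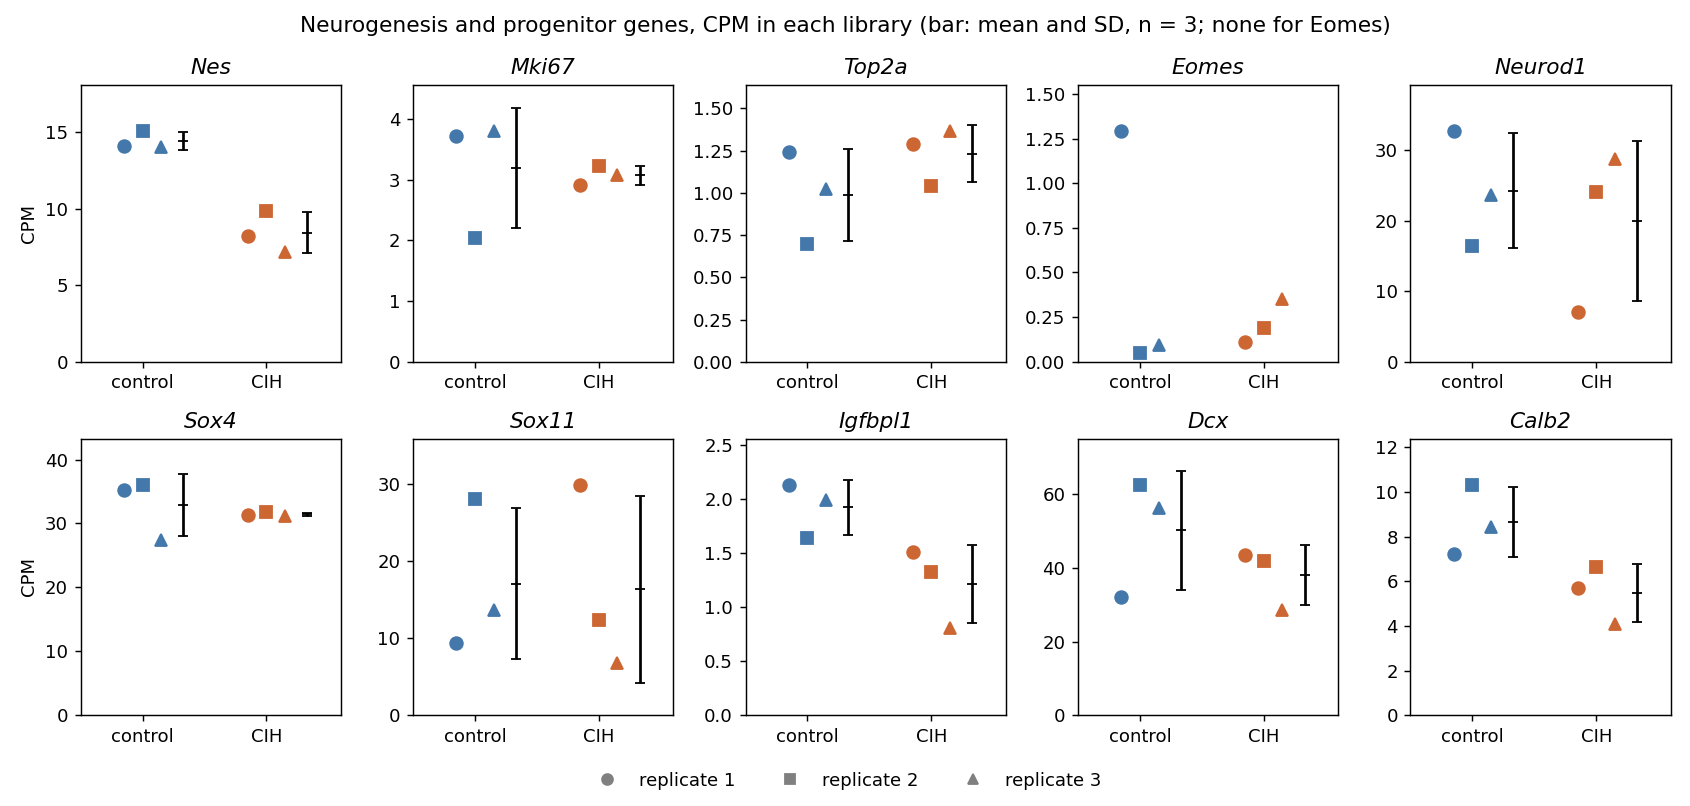
CPM of the 10 genes (vertical axes, each from 0) in the 3 control and 3 CIH libraries, 1 symbol per replicate number, with the mean and SD (n = 3) beside each group except for Eomes. Nes, Igfbpl1 and Calb2 show no overlap between the groups, while Neurod1 and Sox11 spread over more than 4-fold, with CIH replicate 1 at the bottom of the first and the top of the second.

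The genes of dividing cells did not separate the groups. Mki67 (gene ID 291234), the Ki-67 proliferation antigen, stood at 3.73, 2.05 and 3.80 CPM in control and 2.91, 3.22 and 3.08 CPM in CIH, so the CIH libraries lay inside the control range. Its log2 fold change was -0.05 (SE 0.28). Top2a (gene ID 360243), the topoisomerase of replicating and mitotic cells, stood at 1.24, 0.698 and 1.02 CPM in control and 1.29, 1.04 and 1.37 CPM in the CIH group. Its log2 fold change was 0.32 (SE 0.32). The groups overlapped. Both rest on few reads, 41 to 82 estimated counts per library for Mki67 and 14 to 27 for Top2a, and neither passed the test (adjusted p = 1.00 for each, edgeR).

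For this pair the deposited TPM moved apart from the counts. Each TPM divided by its CPM ran from 0.189 to 0.666 in Mki67 and from 0.384 to 2.42 in Top2a, a highest-to-lowest ratio of 3.52 and 6.32. In Nes it ran from 0.305 to 0.312. Among 16406 genes with at least 10 counts in every library, the median of that highest-to-lowest ratio was 1.065 and 0.634% of genes reached 3. For Top2a the controls therefore had 2.65, 0.27 and 2.47 TPM and the CIH libraries 0.61, 0.40 and 2.22 TPM, and on the log2(TPM + 1) scale its difference turned to -0.38 (SE 0.49). How reads were shared among transcripts was not tested, and no direction is drawn for these genes.

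**Figure D2:**
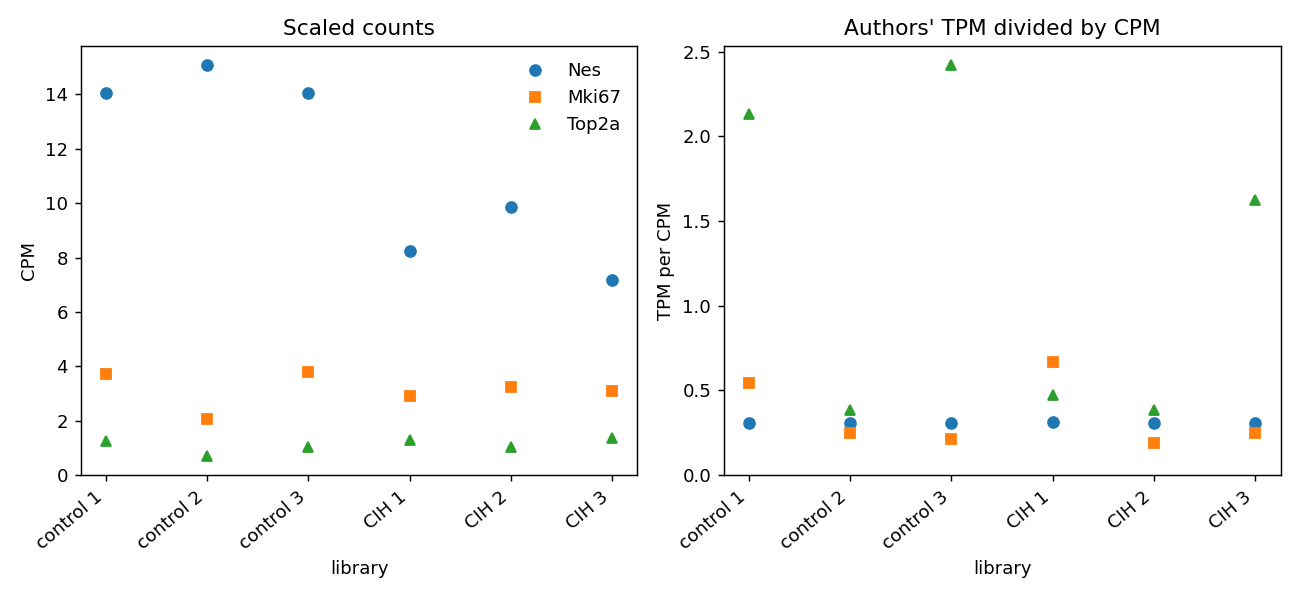
Left, CPM, and right, the authors' TPM divided by CPM, for Nes, Mki67 and Top2a in each of the 6 libraries. The right panel is flat for Nes (0.305 to 0.312) and ranges from 0.384 to 2.42 for Top2a.

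Other genes of the cell cycle gave no common direction. Of 30 listed replication and mitosis genes 25 were tested, 14 of them higher and 11 lower in CIH, with a median log2 fold change of 0.03 against 0.00 over all genes tested, and 0 passed in either direction. The mitotic kinase gene Plk1 stood at 0.44 (SE 0.23), the replication helicase gene Mcm4 at -0.36 (SE 0.22), the thymidine kinase gene Tk1 at -0.40 (SE 0.25) and the cyclin gene Ccnd2, the most abundant, at -0.20 (SE 0.29). Every CIH library lay above all controls for 1 of the 25, Plk1, and below them for 0, against 3.05% and 2.65% of all genes. Dividing cells of other lineages could carry these genes too. Of 11 tested oligodendrocyte progenitor genes 6 were higher and 5 lower (summed level 384 to 478 TPM in control and 394 to 471 TPM in CIH), with Enpp6 at 0.54 (SE 0.39), Gpr17 at 0.10 (SE 0.09), Bcas1 at 0.37 (SE 0.37) and the abundant lineage factor gene Olig1 at -0.0016 (SE 0.17). Of 10 microglial genes 7 were higher and 3 lower (345 to 379 TPM in control and 340 to 408 TPM in CIH), with the purinergic receptor gene P2ry12 at 0.28 (SE 0.15), Aif1 at 0.28 (SE 0.21) and Ptprc at 0.28 (SE 0.23).

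The early stem cell markers beside nestin had values on both sides of 0. Of 22 listed neural stem and radial glia genes 21 were tested, 13 higher and 8 lower in CIH, with a median of 0.03 and 0 past the threshold. Prom1, the prominin stem cell antigen, stood at 0.49 (SE 0.20) with every CIH library above the controls, the stem cell factor gene Sox1 at -0.58 (SE 0.29), and Lpar1, a lysophosphatidic acid receptor gene of stem cells and oligodendrocytes, at 0.38 (SE 0.30). Gfap, the astrocyte and stem cell filament gene, was the most abundant and stood at 0.07 (SE 0.40). Of 9 astrocyte genes 5 were higher and 4 lower, with summed levels of 4172 to 5127 TPM in control and 4713 to 5165 TPM in CIH. The calcium-binding protein gene S100b stood at 0.24 (SE 0.14), the aldolase gene Aldoc at 0.18 (SE 0.15), and the glutamate transporter genes Slc1a3 and Slc1a2 at 0.15 (SE 0.13) and 0.14 (SE 0.13).

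Eomes (gene ID 316052), the factor of intermediate progenitors, was near the detection limit outside 1 library. It had 26, 1 and 2 counts in control and 2, 4 and 7 in CIH, so control replicate 1 stood far above the other 5 libraries. Eomes did not pass the filter on low counts, and no fold change is given.

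Neurod1 (gene ID 29458), a commitment factor that granule neurons go on expressing, was lowest in the library where the mature dentate markers were lowest. It stood at 32.7, 16.4 and 23.7 CPM in control and 7.12, 24.1 and 28.7 CPM in CIH, with CIH replicate 1 the lowest of all and the other CIH libraries inside the control range. The log2 fold change was -0.28 (SE 0.50, adjusted p = 1.00, edgeR), and without CIH replicate 1 it turned to 0.12 (SE 0.28). The summed level of 9 mature dentate granule genes was 843, 444 and 568 TPM in control and 200, 465 and 693 TPM in CIH. Neurod1 had the same order of libraries in TPM, while in CPM control replicate 3 and CIH replicate 2 change places. All 7 tested dentate genes had a lower value in CIH (5 of 7 without CIH replicate 1) and all 7 were lowest in that replicate, among them the desmoplakin gene Dsp at -0.86 (SE 0.54), the synaptic C1q-like gene C1ql2 at -0.70 (SE 0.44), the calbindin gene Calb1 at -0.48 (SE 0.33) and the abundant C1ql3 at -0.34 (SE 0.44). With the dentate score of each library as a covariate, Neurod1 stood at 0.23 (SE 0.20). That score was itself lowest in CIH replicate 1, and the part of dentate content in the Neurod1 value was not tested.

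The other commitment factors moved in both directions. Of 16 listed genes, all tested, 9 were higher and 7 lower, 0 passed, and the median was 0.01. Bhlhe22, a factor of hippocampal and cortical neurons, stood at 17.7 CPM in CIH replicate 1 against 103 to 186 CPM in the other 5 libraries, and its log2 fold change was -0.47 (SE 0.68). Tbr1, a factor of glutamatergic neurons, was highest in that library (78.4 CPM against 18.2 to 43.6 CPM) and stood at 0.63 (SE 0.46). The abundant Tcf4 stood at 0.03 (SE 0.14).

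Sox4 and Sox11 encode related factors that drive newborn neurons to differentiate, and they behaved differently here. Sox4 (gene ID 364712) was the steadiest member, at 35.2, 36.1 and 27.3 CPM in control and 31.4, 31.7 and 31.2 CPM in CIH, with the CIH values inside the control range. Its log2 fold change was -0.06 (SE 0.13). Sox11 (gene ID 84046) stood at 9.44, 28.1 and 13.6 CPM in control and 29.9, 12.3 and 6.78 CPM in CIH, so CIH replicate 1 and control replicate 2 were high and the groups overlapped widely. Its log2 fold change was -0.06 (SE 0.60), and neither gene passed the test (adjusted p = 1.00 for each, edgeR).

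The Sox11 value hung on single libraries. It was -0.84 (SE 0.51) without CIH replicate 1, in which Sox11 was 1.65 log2 units above the mean of the other CIH libraries, and 0.50 (SE 0.61) without control replicate 2. Cortical neuron markers were also high in CIH replicate 1: their summed level was 642 TPM there against 258 to 359 TPM in the other 5 libraries, with 6 of 10 genes at their highest. Control replicate 2 had the next highest cortical sum, 359 TPM. Of those 10 genes 8 were higher in CIH (6 without CIH replicate 1), with Lamp5 at 0.56 (SE 0.26), Tle4 at 0.20 (SE 0.13) and Tshz2 at 1.26 (SE 1.06). Every CIH library lay above all controls for 1 of the 10, Lamp5, against 3.05% of all genes. The part of cortical neurons in the Sox11 value was not tested. With the dentate score as a covariate Sox11 stood at -0.96 (SE 0.20, adjusted p = 0.835 or above for every member in that fit).

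**Figure D3:**
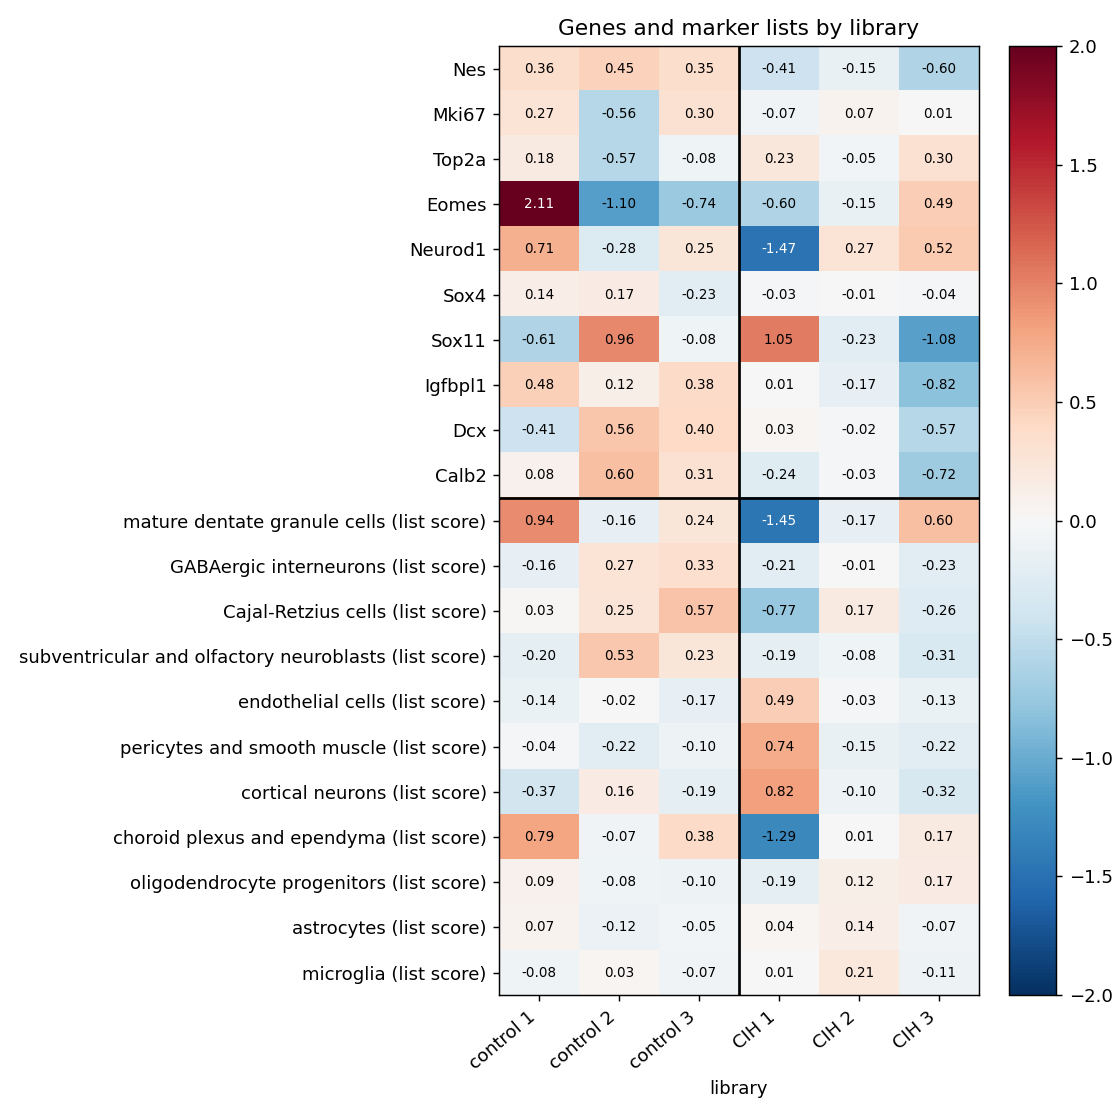
Each row is 1 gene (top, log2 of CPM + 0.1) or the mean log2 CPM of a marker list (bottom), minus its mean over the 6 libraries, with controls left and CIH right of the line. Neurod1 and the dentate list are both lowest in CIH replicate 1, while Sox11 and the cortical list are highest there and Nes is below its mean in every CIH library.

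Igfbpl1, Dcx and Calb2 mark neuroblasts and young granule neurons, and all had a lower mean CPM in CIH. Igfbpl1 (gene ID 366366), an insulin-like growth factor binding protein gene of newborn neurons, stood at 2.14, 1.65 and 1.99 CPM in control and 1.51, 1.33 and 0.809 CPM in CIH. The groups did not overlap in CPM, with a narrow gap between control replicate 2 and CIH replicate 1. In the deposited TPM they did overlap, since CIH replicate 1 stood at 3.20 and control replicate 2 at 3.06 TPM; the estimated counts were only 32.9 to 43.1 in control and 16.2 to 27.9 in CIH. The log2 fold change was -0.66 (SE 0.31). TPM per CPM was 1.81 to 1.86 in control and 2.04 to 2.16 in CIH. The difference was -0.49 (SE 0.28) on the log2(TPM + 0.1) scale and -0.37 (SE 0.21) on the log2(TPM + 1) scale, where the larger pseudocount also shrinks it.

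Dcx (gene ID 84394), which encodes doublecortin, stood at 32.0, 62.7 and 56.3 CPM in control and 43.6, 42.1 and 28.7 CPM in CIH. Control replicates 2 and 3 lay above every CIH library, while control replicate 1 lay within the CIH range. The log2 fold change was -0.40 (SE 0.28), -0.51 without CIH replicate 1, -0.64 without control replicate 1 and -0.22 without control replicate 2.

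Calb2 (gene ID 117059), which encodes the calcium-binding protein calretinin of young granule neurons, stood at 7.20, 10.3 and 8.44 CPM in control and 5.72, 6.64 and 4.10 CPM in CIH. All CIH libraries were below all controls, and the mean was 1.58-fold higher in control. The log2 fold change was -0.66 (SE 0.23), with an unadjusted p of 0.0269, and -0.69 without CIH replicate 1. None of Igfbpl1, Dcx and Calb2 passed the test (adjusted p = 1.00 for each, edgeR).

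Interneurons and Cajal-Retzius cells also hold calretinin. Most of their markers had a lower value in CIH, while the summed levels overlapped between the groups. Of 12 GABAergic interneuron genes 11 were lower in CIH with all libraries and 11 without CIH replicate 1 (median -0.33 and -0.26). The vesicular transporter gene Slc32a1 stood at -0.38 (SE 0.15), the interneuron factor gene Lhx6 at -0.72 (SE 0.31) and the peptide gene Cck at -0.10 (SE 0.36). Pvalb, the parvalbumin gene, stood at 0.42 (SE 0.15) with every CIH library above the controls. The 12 genes summed to 1014, 1403 and 1403 TPM in control and 1134, 1221 and 972 TPM in CIH. All 5 tested Cajal-Retzius genes of 8 had a lower value (4 without CIH replicate 1), among them Ndnf at -0.39 (SE 0.14), the chemokine receptor gene Cxcr4 at -0.67 (SE 0.25) and the nuclear receptor gene Nr2f2 at -1.06 (SE 0.81), which also marks interneurons. That list summed to 62.2, 206 and 187 TPM in control and 105, 110 and 55.2 TPM in CIH. Every CIH library lay below all controls for 2 of the 5, Ndnf and Cxcr4. The same held for 0 of the 12 interneuron genes and for 2.65% of all genes. Dcx, like Nr2f2 and Lhx6, was highest in control replicates 2 and 3; the part of these cells in the Calb2 and Dcx values was not tested.

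Neuroblasts of the neighbouring subventricular zone also hold Dcx and calretinin. All 9 genes listed for that zone, its olfactory progeny and the adjoining striatum were lower in CIH, with and without CIH replicate 1 (median -0.34 and -0.42). They summed to 42.9, 83.6 and 77.2 TPM in control and 37.0, 59.4 and 41.9 TPM in CIH. The distal-less factor genes Dlx5, Dlx1 and Dlx2, also expressed by interneurons, stood at -0.87 (SE 0.29), -0.34 (SE 0.20) and -0.61 (SE 0.39). Every CIH library lay below all controls for 1 of the 9, Dlx5, against 2.65% of all genes. No gene of these 3 lists passed (adjusted p = 1.00 for each, edgeR).

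Other genes of immature and migrating neurons ranged from -0.51 to 0.47 in log2 fold change. Of 22 listed genes 21 were tested, 15 lower and 6 higher, 0 past the threshold, with a median of -0.06. The doublecortin-like kinase gene Dclk1 stood at 0.31 (SE 0.15) with every CIH library above the controls, the growth cone gene Marcks at -0.33 (SE 0.17), the tubulin regulator gene Stmn1 at 0.47 (SE 0.33) and the abundant growth cone gene Basp1 at -0.18 (SE 0.24). Of 38 listed niche signals and receptors 36 were tested, 20 lower and 16 higher (25 and 11 without CIH replicate 1), 0 past the threshold, with a median of -0.02. Among them, beside Cxcr4, the growth factor gene Vegfa stood at 0.31 (SE 0.10), Nog, which encodes the BMP antagonist noggin, at -0.59 (SE 0.28) and the neurotrophin receptor gene Ntrk2 at 0.02 (SE 0.13). Every CIH library lay above all controls for 1 of the 36, Vegfa, against 3.05% of all genes. All lay below the controls for 3, Cxcr4 among them, against 2.65% of all genes.

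Counted over the set by the sign of the edgeR value, 8 of 9 tested members were lower in CIH, with a median log2 fold change of -0.28 against 0.00 over all genes. That count takes in Mki67, at -0.05, as lower and Top2a as higher, the genes whose signs turned in TPM. It also takes in Sox4 and Sox11, at -0.06 each (SE 0.13 and 0.60), and Neurod1, which turned to 0.12 without CIH replicate 1. Nes, Igfbpl1, Dcx and Calb2 were the members lower in CIH in every alternative. A lower median was not particular to the members. It was -0.33 for interneuron, -0.34 for subventricular, -0.39 for Cajal-Retzius, -0.43 for choroid and ependymal and -0.48 for mature dentate genes. The endothelial, pericyte, cortical and thalamic lists had medians of 0.22 to 0.35. Those of oligodendrocyte progenitors, astrocytes and microglia were 0.04 to 0.07. By edgeR 0 of 9 members passed, against 0% of all genes; at an unadjusted p under 0.05 there were 2 of 9, Nes and Calb2, against 1.78% (319 genes). In CPM all CIH libraries lay below all controls for 3 of 9 members, Nes, Igfbpl1 and Calb2, against 2.65% of genes, and above them for 0 of 9, against 3.05%. In TPM the count was 2 of 9, Nes and Calb2, against 3.07% of genes. The members were chosen with earlier results for these libraries known, so these counts are a description and carry no test. DESeq2 and limma on log2 TPM also called 0 members.

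CIH replicate 1 stood apart from the other libraries in tissue markers and was therefore set aside in turn. It was the lowest library for 1 of 9 members (Neurod1) and the highest for 1 (Sox11), against 25.5% and 25.7% of all genes. Without it the same 3 of 9 members, Nes, Igfbpl1 and Calb2, had both remaining CIH libraries below all controls, against 7.10% of genes. That these 3 stayed was fixed in advance, since leaving out a library cannot undo a full separation. Both lay above all controls for 0 of 9, against 7.21%, and 7 of 9 members then had a lower value in CIH. Choroid plexus and ependymal genes were also lowest there for 8 of 10 tested genes (summed level 37.9 TPM against 55.6 to 119 TPM), and 9 of the 10 were lower in CIH (6 without it), with Kl at -0.73 (SE 0.45), Ccdc153 at -0.44 (SE 0.37), Folr1 at -0.72 (SE 0.72) and the abundant Rarres2 at 0.24 (SE 0.29). Of 8 tested thalamic and habenular genes 5 were highest there and 5 were higher in CIH (3 without it), with Rora at 0.44 (SE 0.27), Lef1 at 0.32 (SE 0.22) and Ntng1 at -0.34 (SE 0.29).

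**Figure D4:**
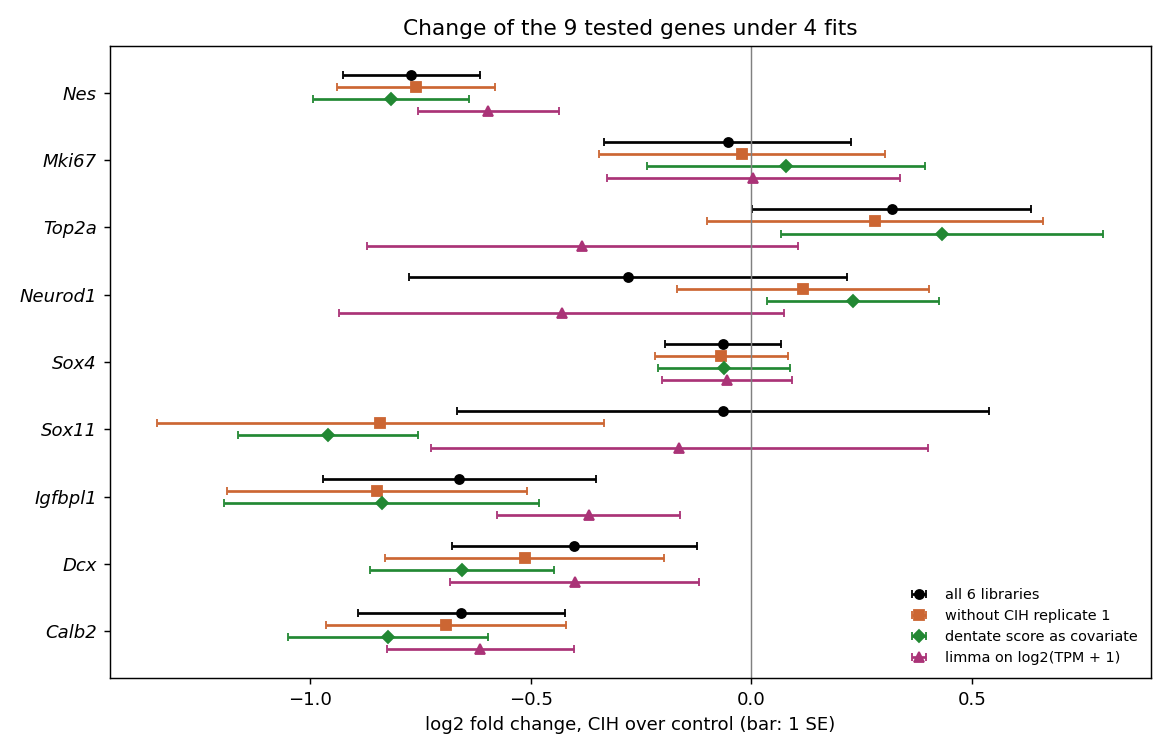
Log2 fold change, CIH over control, with 1 SE, of the 9 tested genes in 4 fits: edgeR with all 6 libraries, without CIH replicate 1, with the dentate score as a covariate, and limma on log2(TPM + 1). Nes, Igfbpl1, Dcx and Calb2 stay below 0 in all 4, while Neurod1, Top2a and Mki67 cross 0 and Sox11 ranges from -0.96 to -0.06.

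The members did not vary as 1 block across libraries. Over the 6 libraries, which share the group difference and tissue makeup, Pearson's r of log2 CPM was 0.93 between Nes and Calb2, 0.84 between Nes and Igfbpl1, 0.82 between Dcx and Calb2 and 0.75 between Sox11 and Dcx. It was -0.85 between Neurod1 and Sox11 and -0.86 between Top2a and Calb2. Of 14777 other genes with a mean log2 CPM above 1, 40 reached 0.9 with Nes, led by Tceal5 (r = 0.99), Sirt4 (0.99), Gstcd (0.99), Prxl2a (0.98) and Tars3 (0.98), whose log2 fold changes were only -0.19 to -0.14. With Dcx 444 genes reached 0.9, led by Zbtb46, Ercc4, Ninj1, Baiap3 and C2cd4c (r = 0.99 to 1.00), of which Baiap3 stood at -1.19 and the others at -0.59 to -0.06. With 6 libraries and so many genes, values of this size are a description only.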

How the data were processed

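RNA libraries were grouped by title. The authors deposited, per the file headers, estimated counts and TPM per gene; HISAT2 2.2.0, RSEM 1.2.12, Bowtie2 2.2.5 and the build Rnor_6.0 are named, without roles, per the submitters' processing notes. The annotation and any use of strand are not given in the sources at hand. Estimated counts, 16.0% of them not whole, were rounded. Totals were 17170943 to 21941173 per library, and every 2 libraries differed by more than counting noise (chi-square per degree of freedom at least 6.67). The small RNA table was not used here.

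All genes were tested with edgeR 4.0.16 (quasi-likelihood, TMM scaling, genes kept by filterByExpr; R 4.3.3); p-values were adjusted by Benjamini-Hochberg over 17935 genes with a threshold of 0.05. Each edgeR SE is the fold change divided by the root of its F statistic, and each limma SE the difference divided by its t statistic. The code was tested on simulated counts. Alternatives used DESeq2 1.42.0, limma 3.58.1 on log2(TPM + 1) or log2(TPM + 0.1), RLE factors, no filter, a replicate block, a dentate covariate and leaving out each library. The 10 members and 17 lists were chosen with earlier results of these data known. From each list the 3 genes with the smallest p and the most abundant one are named, and the 5 genes most like Nes and like Dcx; some of these are not reported here. Figures used matplotlib 3.10.9.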

Additional observations from a re-analysis of the deposited data

How the results depend on the processing

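No member passed the threshold in any of the 13 alternatives, and between 6 and 8 of the 9 tested members were lower in CIH in each. When each library was left out, 3 to 4 members had no overlap, and 2 in TPM with all libraries. Leaving out a library cannot undo a full separation, so that count could not fall below 3. Both counts were added after the data were seen, as were list counts without CIH replicate 1. Over all genes edgeR called 0, DESeq2 called 10, limma 1 with either pseudocount, and leaving out 1 library 0 to 1. Nes, Igfbpl1, Dcx and Calb2 were lower in all 13. The 13 reuse the same libraries, and for Nes, Igfbpl1 and Calb2, separated in CPM, leaving out a library could hardly turn the direction. Mki67 turned direction in limma (0.0045 with a pseudocount of 1 and 0.027 with 0.1), with the dentate covariate (0.079) and over the left-out libraries (-0.29 to 0.092), and Top2a in limma (-0.38 and -0.56). Neurod1 turned with the dentate covariate (0.23) and over the left-out libraries (-0.64 to 0.12), as did Sox4 (-0.18 to 0.0046) and Sox11 (-0.84 to 0.50) over the left-out libraries. The cause of these turns was not tested. With a replicate block 0 genes were called and 8 members were lower, with Nes at -0.78. Replicate numbers gave no sign of pairing, with correlations of -0.222, -0.0457 and -0.176 between the deviations of libraries that share a number. Depth limited Eomes, Top2a and Igfbpl1 most.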
